A study of Mus musculus with 3 samples.

Results

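The 29 genes described here encode enzymes of cholesterol synthesis, proteins that control the SREBP transcription factors, and a sterol carrier. They were taken by symbol from a table of 31053 genes, in which each symbol had 1 row. The table holds unique molecular identifier (UMI) counts of single cells, sorted from the non-parenchymal fraction of mouse liver (the cells other than hepatocytes). The animals were Ai14 (LSL-Tomato) mice, a strain in which Cre recombinase switches on a red fluorescent protein. They received PBS, 20a-LNP or 20mix-LNP, lipid nanoparticles that carried Cre mRNA at 0.3 mg/kg, and cells were taken at 3 h. Each treatment has 1 library, and the labels do not say how many animals of what age or sex it came from. The barcodes of the 3 libraries carry the suffixes 1, 2 and 3, and no source used here ties a suffix to a treatment. Therefore no effect of either nanoparticle on these genes is given. The values compare cell classes, pooled over the libraries, with the value in each library (called library 1, 2 and 3 after its suffix) beside them.

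Cholesterol is built from acetyl-CoA. Acetyl units are joined and reduced to mevalonate, mevalonate becomes isoprene units, these are linked into farnesyl diphosphate and squalene, and squalene is closed into lanosterol, which is trimmed to cholesterol. The pathway is switched on by SREBP2 (gene Srebf2), a membrane protein of the endoplasmic reticulum. Its partner Scap escorts it to the Golgi when sterols are low, where the proteases encoded by Mbtps1 and Mbtps2 release its active part, and the Insig proteins hold Scap back when sterols are plentiful. In the liver most cholesterol is made by hepatocytes, which the non-parenchymal fraction is meant to leave out.

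Promoter sequence was looked at because SREBP2 is known to act on sterol regulatory elements together with the factors NF-Y and Sp1. Windows were sought for Hmgcs1, Idi1, Msmo1, Insig1, Insig2 and Ggps1, and are shown for the 3 with a stretch free of annotated exons. Of these, Insig1 and Insig2 had opposite orders in plasmacytoid dendritic and sinusoidal endothelial cells below, and a link of sequence to level was not tested. The windows are 120 bases 5′ to 3′ on the gene's own strand, from RefSeq on GRCm38.p6 (mm10). Capitals mark TCACNCCAC (a sterol regulatory element core with 1 open letter), CCAAT (the NF-Y box) and GGGCGG (the Sp1 box), or the reverse complement of one. Hmgcs1 lies at chr13:119690214-119690333, plus strand. Insig1 lies at chr5:28071183-28071302, plus strand, and Insig2 at chr1:121332606-121332725, minus strand. All 3 windows are upstream of the annotated start and hold no annotated exon. Each was placed where it held the most matches, so the matches inside it are no measure of how common they are.
Hmgcs1: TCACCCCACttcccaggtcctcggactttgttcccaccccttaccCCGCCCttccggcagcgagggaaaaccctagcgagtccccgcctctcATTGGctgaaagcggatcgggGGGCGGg
Insig1: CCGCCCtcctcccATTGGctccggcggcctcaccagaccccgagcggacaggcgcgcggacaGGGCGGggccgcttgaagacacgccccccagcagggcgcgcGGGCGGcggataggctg
Insig2: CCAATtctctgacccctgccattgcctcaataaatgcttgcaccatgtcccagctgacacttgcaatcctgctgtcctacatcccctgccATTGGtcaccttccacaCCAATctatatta

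The Hmgcs1 window held the sterol element core, 1 CCAAT and 2 GGGCGG. Insig1 had 1 CCAAT and 3 GGGCGG, and Insig2 had 3 CCAAT and no GGGCGG in the window shown, which belongs to 1 of its 3 annotated starts. The promoters of the other 2 starts each held 1 GGGCGG and no CCAAT. RefSeq promoters of 300 bases (250 before to 50 after a start) were found for 25 of the 29 genes, 31 promoters in all, and searched on both strands. CCAAT occurred in 20 of 31 (64.5%), against 37.4% of all 32851 promoters. GGGCGG occurred in 24 of 31 (77.4%), against 35.7% of all promoters. The sterol element core occurred in 1 of 31, against 1.24% of all promoters, and CANNTG (the E-box) in 77.4%, against 72.3%. Motifs that overlap each other were each counted. The median GC content of the member promoters was 62.3%, against 52.7% for all, and its part in the share with GGGCGG was not tested.

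Cells were assigned to classes from raw UMIs of 8 marker genes per class. Of 4638 barcodes with 24111183 UMIs, 3207 cells were kept (755, 1110 and 1342 in libraries 1, 2 and 3), and 2829 of them entered a class. Each class name stands for cells like that type, since it rests on markers alone. The largest were sinusoidal endothelial (920 cells), NK or ILC1 (710), plasmacytoid dendritic (386), Kupffer (217, the liver macrophages), nonclassical monocyte (135), conventional dendritic 1 (105), conventional dendritic 2 (79), T (74) and neutrophil (64). Migratory dendritic (38 cells), classical monocyte (46) and B (47) were under the minimum of 50 cells and are given beside them, and a further 8 gated cells are not described. Of 5 held-out genes per class, all 5 were highest in their own class for sinusoidal endothelial, Kupffer, plasmacytoid dendritic and neutrophil cells, but 2, 1 and 1 for conventional dendritic 1, conventional dendritic 2 and migratory dendritic cells, whose lists share Cst3 and H2-Ab1. NK or ILC1 and T cells had 4 each, nonclassical monocytes and B cells 2 each, and classical monocytes 1 of 4. Median depth ran from 2832 UMIs per cell (Kupffer) to 16366 (conventional dendritic 1). Only 3 barcode sequences occurred in more than 1 library.

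Plasmacytoid dendritic cells, the interferon-producing dendritic subset, carried the most transcripts of the pathway. Levels are counts per 1000000 UMIs of a class (CPM), and intervals are exact 95% Poisson intervals, which cover counting error only. A ratio is called higher or lower only where its interval, exact given the summed count, excludes 1. The 29 genes summed to 1576 CPM in plasmacytoid dendritic cells (1537 to 1615), with 1695, 1422 and 1645 CPM in libraries 1, 2 and 3. Migratory dendritic cells followed with 1182 CPM (1068 to 1305), from 1648, 1065 and 1188 CPM. Conventional dendritic 2 cells had 985 CPM (924 to 1049), from 1249, 1037 and 676 CPM, and conventional dendritic 1 cells 973 CPM (924 to 1024), from 1220, 949 and 861 CPM. Sinusoidal endothelial cells, the fenestrated lining of the sinusoids, had 643 CPM (621 to 666), from 682, 612 and 635 CPM. The other classes lay between 658 CPM (classical monocyte) and 324 CPM (neutrophil), with 553 CPM in NK or ILC1 cells and 491 CPM in Kupffer cells.

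**Figure D1:**
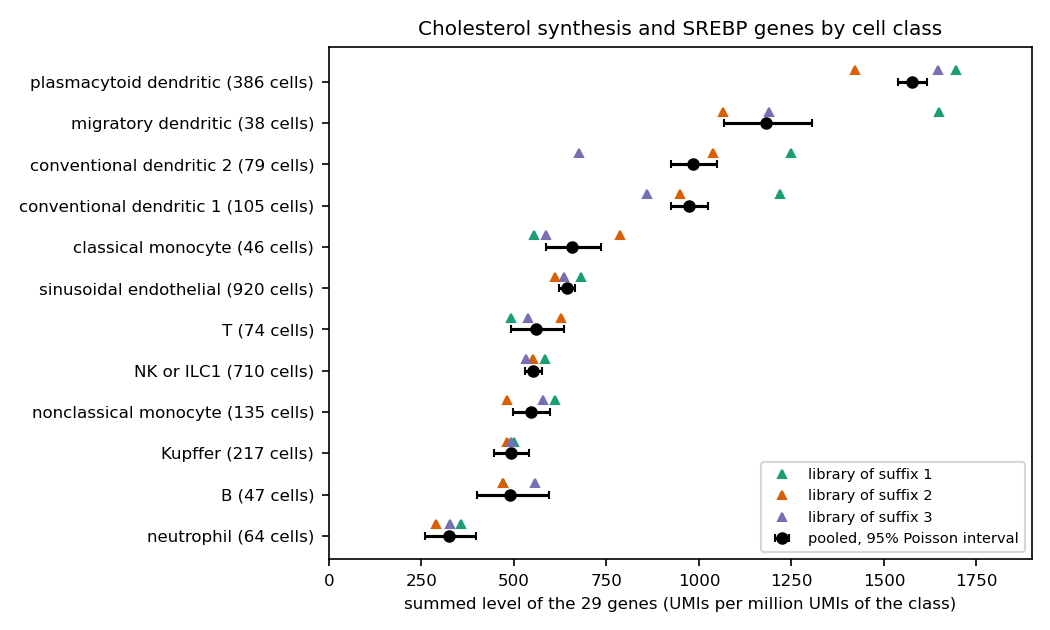
Summed level of the 29 genes (CPM, x axis) in 12 cell classes (y axis); black points are the pooled value with its 95% Poisson interval and triangles the 3 libraries. Plasmacytoid dendritic cells reach 1576 CPM and neutrophils 324 CPM, and the dendritic subsets spread more between libraries than sinusoidal endothelial cells do.

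Plasmacytoid dendritic cells exceeded sinusoidal endothelial cells 2.45 times (95% interval 2.35 to 2.56), with 2.49, 2.32 and 2.59 in the 3 libraries. The ratio was 1.62 (1.53 to 1.72) over conventional dendritic 1, from 1.39 to 1.91 by library, and 1.60 (1.50 to 1.71) over conventional dendritic 2, from 1.36 to 2.43. Over migratory dendritic cells it was 1.33 (1.20 to 1.48), with 1.03 in library 1, which held 5 of those cells. With the class totals scaled by TMM, a method that assumes most genes are equal, that last ratio was 1.04 and its interval held 1 (0.937 to 1.15). TMM shifts every ratio of plasmacytoid dendritic cells by −0.36 (log2) over migratory dendritic, −0.20 over conventional dendritic 1 and 0.15 over sinusoidal endothelial cells. The ratio of conventional dendritic 1 to 2 cells was 0.988 (0.911 to 1.07), above 1 in 1 library and below 1 in the others. It depended on the processing, with 1.09 (1.00 to 1.18, excluding 1) under TMM and 0.883 (0.794 to 0.983) where a cell needed a lead of 2 markers to enter a class.

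Hepatocyte, haemoglobin and proliferation transcripts also differed between the classes, and their part in the results was not tested. A list of 15 hepatocyte transcripts summed to 156 CPM in plasmacytoid dendritic cells, 112 CPM in NK or ILC1 cells, 263 CPM in sinusoidal endothelial cells and 1078 CPM in Kupffer cells, with 1 of the 15 at 0 in NK or ILC1 cells and none at 0 in the other 3 classes. Over all 12 classes it ran from 112 to 1078 CPM, and besides NK or ILC1 only T cells (129 CPM) were lower than plasmacytoid dendritic cells. Haemoglobin (4 genes) stood apart in library 3, with 4751 CPM in sinusoidal endothelial and 17009 CPM in Kupffer cells, against at most 125 CPM in those classes of the other libraries and 16.3 CPM in plasmacytoid dendritic cells. A list of 13 proliferation genes summed to 244 CPM in plasmacytoid dendritic, 829 CPM in conventional dendritic 1, 853 CPM in conventional dendritic 2 and 3090 CPM in T cells. Without the cells that held a UMI of Mki67 or Top2a (a split chosen after seeing the data), the member sum was 1579 CPM in plasmacytoid dendritic cells, 1024 CPM in conventional dendritic 1 and 1099 CPM in conventional dendritic 2 cells.

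Gene by gene, plasmacytoid dendritic cells were highest among the 9 classes of at least 50 cells for 15 of 29 members, and in all 3 libraries for 8 of those. Sinusoidal endothelial cells led for 5 (Insig2, Stard4, Ggps1, Mbtps1 and Mbtps2), 3 of them in all 3 libraries. The share of all genes led by each class was not counted, so these counts have no background beside them. Also not counted was the share of all genes whose library values do not overlap between classes, as stated for single members below. The interval over the next class held 1 for Acat2, Mvk, Pmvk, Tm7sf2 and Srebf2 in plasmacytoid dendritic cells. It also held 1 for Ggps1, Mbtps1 and Mbtps2 in sinusoidal endothelial cells. At least 2 times higher in plasmacytoid dendritic than in sinusoidal endothelial cells were 22 of 29 members. Among all 11225 genes with at least 20 UMIs in both classes together, 20.9% passed the same ratio, and the median log2 ratio was 1.99 for the members and −0.33 for all genes. In the other direction 2 of 29 passed, Insig2 and Stard4, beside 33.6% of all genes. Against conventional dendritic 1 cells 13 of 29 were at least 2 times higher (23.4% of all genes; median log2 ratio 0.81 against 0.29), and against conventional dendritic 2 cells 11 of 29 (19.9%; 0.72 against 0.19). Against migratory dendritic cells 10 of 29 passed, beside 43.2% of all genes, with medians of 0.65 and 0.77, so the members did not stand above the background there. In the other direction 3 of 29 passed (Pmvk, Idi1 and Acss2), beside 10.1% of all genes. Under TMM the ratios over conventional dendritic 1 cells of 6 members (Acat2, Fdps, Fdft1, Hsd17b7, Srebf2 and Aacs) had intervals that held 1. Against NK or ILC1 cells 18 of 29 passed (16.4% of all genes), and against Kupffer cells 21 of 29 (28.2%).

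**Figure D2:**
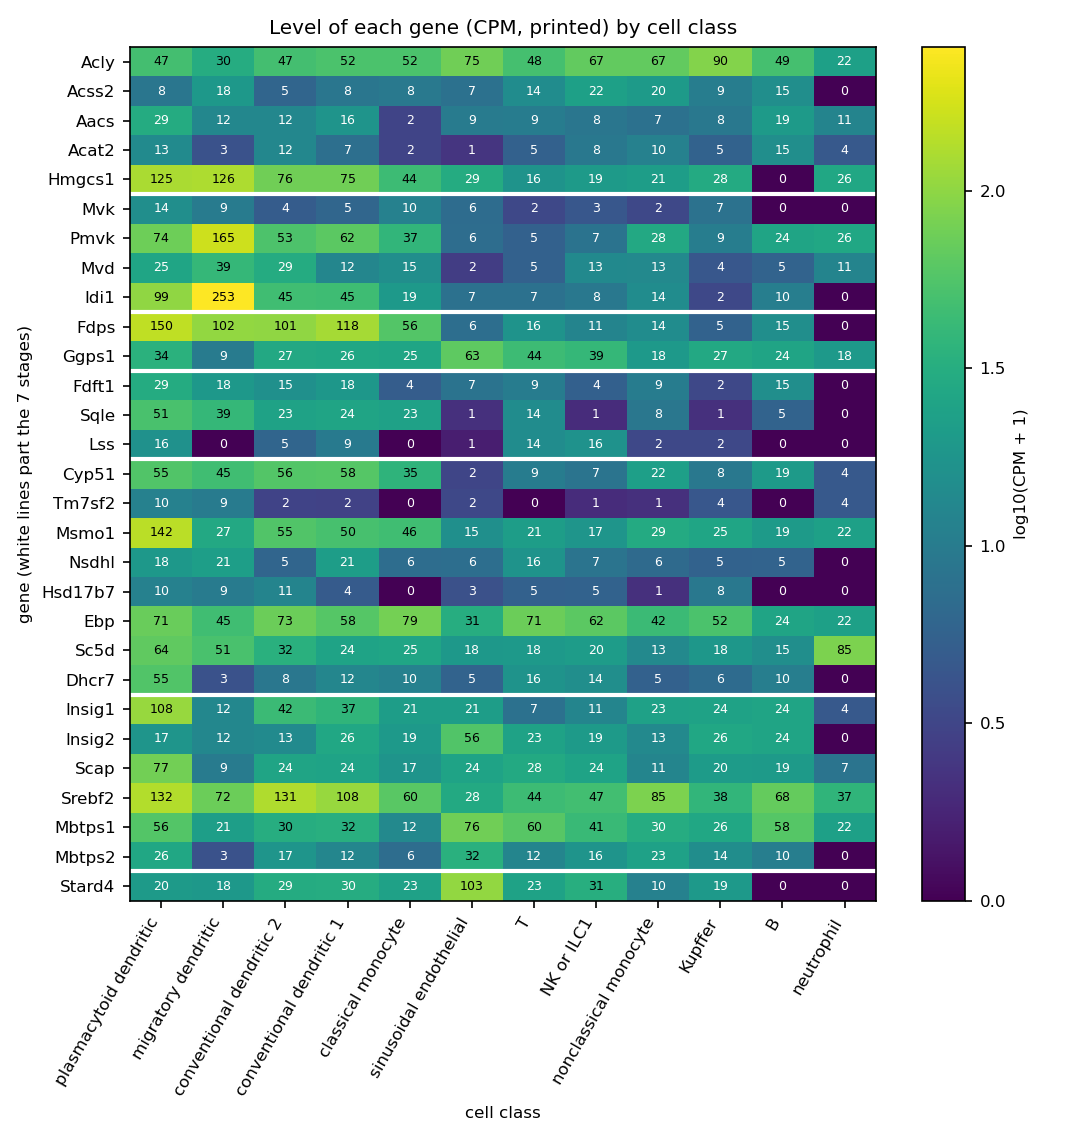
Level of each of the 29 genes (rows, in pathway order, with white lines between the 7 stages) in 12 cell classes (columns); colour is log10(CPM + 1) and the printed number is CPM. The 4 dendritic columns at the left are brightest for Hmgcs1, Pmvk, Idi1, Fdps and Cyp51, and Stard4, Ggps1 and Insig2 are brightest in sinusoidal endothelial cells.

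The first stage supplies acetyl-CoA and joins it. It summed to 222 CPM in plasmacytoid dendritic cells (207 to 237), 189 CPM in migratory dendritic, 158 CPM in conventional dendritic 1, 152 CPM in conventional dendritic 2, 141 CPM in Kupffer and 122 CPM in sinusoidal endothelial cells. The ratio of plasmacytoid to migratory dendritic cells was 1.17 with an interval that held 1 (0.906 to 1.54), and migratory dendritic cells were higher in 2 of 3 libraries. In library 2 the ratio was below 1 over Kupffer (0.943) and conventional dendritic 2 cells (0.922), but not over migratory dendritic cells (1.42). The pooled ratio over conventional dendritic 2 cells was 1.46 (1.23 to 1.74) and became 1.16 with an interval holding 1 without library 3. Hmgcs1, the synthase that makes HMG-CoA, had 151, 85.6 and 146 CPM in plasmacytoid dendritic cells of libraries 1, 2 and 3. It had 28.0, 24.4 and 31.3 CPM in sinusoidal endothelial cells and 127, 62.9 and 64.0 CPM in conventional dendritic 1 cells. Plasmacytoid dendritic cells did not overlap with sinusoidal endothelial cells and did overlap with conventional dendritic 1 cells. Migratory dendritic cells were at 126 CPM, close to the 125 CPM of plasmacytoid dendritic cells. Acly, which makes cytosolic acetyl-CoA from citrate, had another order. It was at 77.9, 108 and 87.3 CPM in Kupffer cells, 76.3, 68.4 and 76.6 CPM in sinusoidal endothelial cells and 46.6, 48.8 and 45.6 CPM in plasmacytoid dendritic cells. The ratio of plasmacytoid dendritic to sinusoidal endothelial cells was 0.63 (0.52 to 0.75), in the same direction in 3 of 3 libraries. Acss2, which makes acetyl-CoA from acetate, had 23.6, 22.5 and 21.7 CPM in NK or ILC1 cells and 8.07, 5.35 and 10.1 CPM in plasmacytoid dendritic cells, without overlap. Nonclassical monocytes had 20.3, 15.9 and 24.1 CPM of it, and migratory dendritic cells 89.1, 0 and 19.5 CPM from 6 UMIs in all. Aacs, which activates acetoacetate, was at 28.8 CPM in plasmacytoid dendritic and 8.99 CPM in sinusoidal endothelial cells. Acat2, the cytosolic thiolase, was at 13.3 and 1.37 CPM in the same classes. Its ratio of 2.02 over conventional dendritic 1 cells ran from 1.23 to 3.96 when libraries were left out, and its interval held 1 without library 2 or library 3.

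Mevalonate to isoprene units is the stage that set the migratory dendritic cells apart. Its 4 enzymes summed to 466 CPM there (396 to 546), against 213 CPM in plasmacytoid dendritic (199 to 228), 132 CPM in conventional dendritic 2, 123 CPM in conventional dendritic 1 and 20.9 CPM in sinusoidal endothelial cells. By library the migratory dendritic sum was 557, 514 and 341 CPM and the plasmacytoid dendritic sum 194, 193 and 251 CPM, so the groups did not overlap. The ratio of plasmacytoid to migratory dendritic cells was 0.457 (0.385 to 0.546). Idi1, the isomerase that balances both isoprene units, had 334, 303 and 127 CPM in migratory dendritic cells. It had 88.8, 78.2 and 131 CPM in plasmacytoid dendritic cells and 8.31, 12.2 and 4.71 CPM in sinusoidal endothelial cells. In library 3 the migratory and plasmacytoid dendritic levels were close. Pmvk, phosphomevalonate kinase, had 156, 173 and 156 CPM in migratory dendritic cells, 60.1, 76.9 and 82.6 CPM in plasmacytoid dendritic cells and 3.02, 9.78 and 6.72 CPM in sinusoidal endothelial cells, and these groups did not overlap. Mvd, the decarboxylase, was at 39.1 CPM in migratory dendritic, 29.2 CPM in conventional dendritic 2 and 25.1 CPM in plasmacytoid dendritic cells, with overlapping intervals. Mvk, mevalonate kinase, was low in all classes, with at most 14.3 CPM (plasmacytoid dendritic) and 9.02 CPM in migratory dendritic cells. The stage difference between migratory and plasmacytoid dendritic cells thus lay mostly in Idi1 and Pmvk. It rests on 38 migratory dendritic cells (5, 22 and 11 in libraries 1, 2 and 3), under the minimum of 50.

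**Figure D3:**
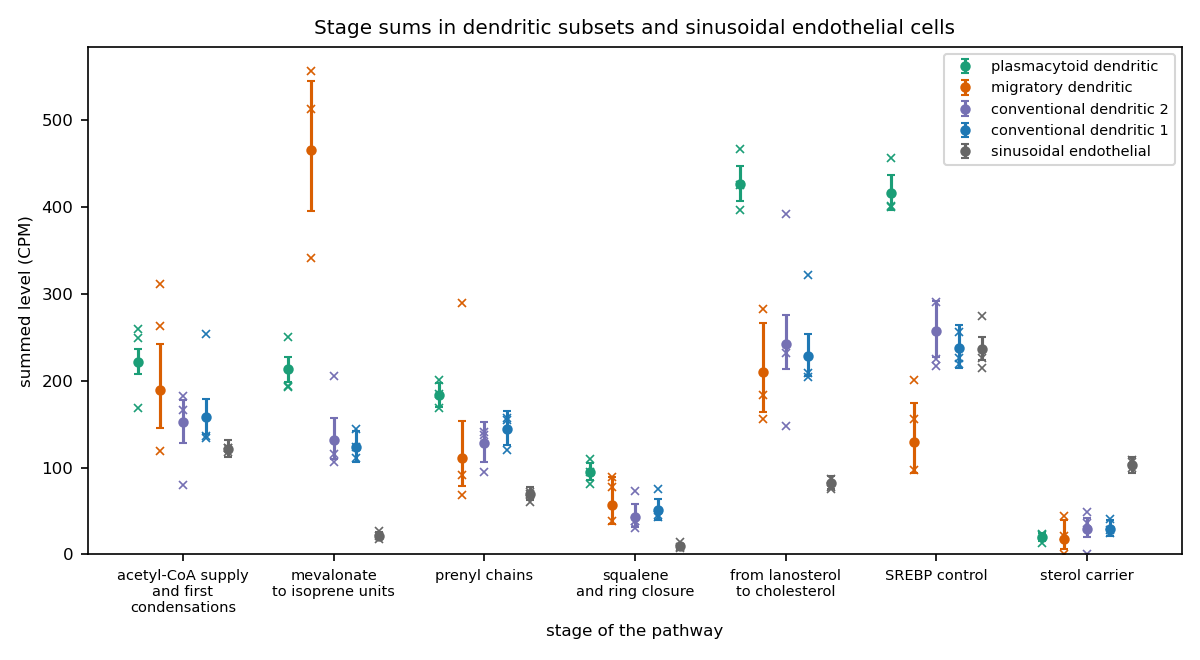
Summed level (CPM, y axis) of the 7 stages (x axis) in 4 dendritic subsets and sinusoidal endothelial cells; points carry 95% Poisson intervals and crosses are the 3 libraries. Migratory dendritic cells lead at the isoprene stage (466 CPM), plasmacytoid dendritic cells at the lanosterol stage (427 CPM) and SREBP control (416 CPM), and sinusoidal endothelial cells at the sterol carrier (103 CPM).

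The prenyl stage holds 2 synthases that drew the classes in opposite directions. Fdps makes farnesyl diphosphate, the last step shared by sterols and other isoprenoids, and Ggps1 makes geranylgeranyl diphosphate, used to anchor proteins in membranes. Fdps had 165, 142 and 146 CPM in plasmacytoid dendritic cells of libraries 1, 2 and 3. It had 134, 126 and 97.0 CPM in conventional dendritic 1 cells, 122, 110 and 64.6 CPM in conventional dendritic 2 cells and 9.82, 2.44 and 6.05 CPM in sinusoidal endothelial cells. All 3 dendritic subsets thus stood apart from the sinusoidal endothelial level. Ggps1 had 59.7, 57.4 and 66.2 CPM in sinusoidal endothelial cells and 35.9, 26.7 and 39.1 CPM in plasmacytoid dendritic cells, without overlap (ratio of the second to the first 0.53, 0.43 to 0.65). UMIs of Fdps to those of Ggps1 were 597 to 134 in plasmacytoid dendritic cells, a ratio of 4.46 (3.69 to 5.41), and 33 to 323 in sinusoidal endothelial cells, a ratio of 0.102 (0.0691 to 0.146). The ratio was 4.50 in conventional dendritic 1, 3.70 in conventional dendritic 2 and 0.287 in NK or ILC1 cells, each on the same side of 1 in 3 of 3 libraries. Such counts of 3′ ends do not grow with transcript length, but a gene's 3′ end can be captured more or less well, so the contrast between classes is the firmer part. The Fdps gene overlaps another protein-coding model on its strand (Gm43738), to which reads could be split.

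Squalene synthesis and ring closure summed to 95.1, 81.6 and 109 CPM in plasmacytoid dendritic cells of libraries 1, 2 and 3 (pooled interval 85.6 to 105). The pooled sums were 50.5 CPM in conventional dendritic 1, 43.3 CPM in conventional dendritic 2 and 8.99 CPM in sinusoidal endothelial cells. No UMI of the 3 genes was found in neutrophils, where the interval reaches 13.6 CPM. Sqle, squalene epoxidase, an oxygen-dependent control point, had 54.7, 39.4 and 59.4 CPM in plasmacytoid dendritic cells. It had 48.0, 17.4 and 20.6 CPM in conventional dendritic 1 cells and 2.27, 1.22 and 0.672 CPM in sinusoidal endothelial cells. Its ratio of plasmacytoid dendritic to sinusoidal endothelial cells was 43.2 (19.5 to 119) and ran from 24.6 (without library 3) to 62.0 when each library was left out in turn. The sinusoidal endothelial count behind it was small. Fdft1, squalene synthase, had 26.0, 25.4 and 34.8 CPM in plasmacytoid dendritic cells and 11.3, 6.11 and 5.71 CPM in sinusoidal endothelial cells, without overlap. Lss, which closes the ring, was at 15.7 CPM in NK or ILC1 cells (12.1 to 20.1) and 15.5 CPM in plasmacytoid dendritic cells (11.9 to 19.9), a ratio of 1.01 whose interval held 1 (0.70 to 1.46). It was at 0.586 CPM in sinusoidal endothelial cells. Migratory dendritic cells held no Lss UMI, and the interval reaches 11.1 CPM.

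From lanosterol to cholesterol, 8 enzymes summed to 427 CPM in plasmacytoid dendritic cells (407 to 447), 243 CPM in conventional dendritic 2, 228 CPM in conventional dendritic 1, 211 CPM in migratory dendritic and 82.5 CPM in sinusoidal endothelial cells. The ratio of the first to conventional dendritic 1 cells was 1.87 (1.66 to 2.10) and to sinusoidal endothelial cells 5.17 (4.65 to 5.77), each in 3 of 3 libraries. Msmo1, the sterol C4 oxidase, had 168, 125 and 139 CPM in plasmacytoid dendritic cells and 68.5, 45.5 and 45.4 CPM in conventional dendritic 1 cells, with no overlap. It had 12.1, 13.4 and 16.5 CPM in sinusoidal endothelial cells. Dhcr7, a reductase of the late steps, was at 55.4 CPM in plasmacytoid dendritic cells (51.1, 55.5 and 58.7 by library), against 11.8, 8.06 and 4.89 CPM in conventional dendritic 1, conventional dendritic 2 and sinusoidal endothelial cells. Its ratio over conventional dendritic 1 cells was 4.69 (2.90 to 8.06). Cyp51, the lanosterol demethylase, could not be ordered among 3 dendritic subsets, with 55.4 CPM in plasmacytoid dendritic, 58.4 CPM in conventional dendritic 1 and 56.4 CPM in conventional dendritic 2 cells. The ratio of the first to the second was 0.95, with an interval from 0.74 to 1.23. In sinusoidal endothelial cells Cyp51 was at 2.15 CPM.

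Sc5d, the sterol C5 desaturase, had 71.8, 64.9 and 58.0 CPM in plasmacytoid dendritic cells and 12.8, 11.0 and 22.5 CPM in sinusoidal endothelial cells, without overlap. In neutrophils it reached 84.6 CPM and was the only member led by that class, although its ratio over plasmacytoid dendritic cells was 1.31 with an interval of 0.82 to 2.02. Ebp, the sterol isomerase, ran from 22.1 CPM in neutrophils to 79.2 CPM in classical monocytes, with 71.2 CPM in plasmacytoid dendritic, 71.4 CPM in T and 61.7 CPM in NK or ILC1 cells. Nsdhl, a decarboxylase of the C4 position, was at 21.0 CPM in conventional dendritic 1 cells, and the ratio of plasmacytoid dendritic cells to these was 0.859, with an interval that held 1 (0.559 to 1.35). Tm7sf2, a C14 reductase whose gene overlaps Vps51 on the same strand, and Hsd17b7, a ketoreductase, were each at 10.3 CPM in plasmacytoid dendritic cells and under 12 CPM in all 12 classes.

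**Figure D4:**
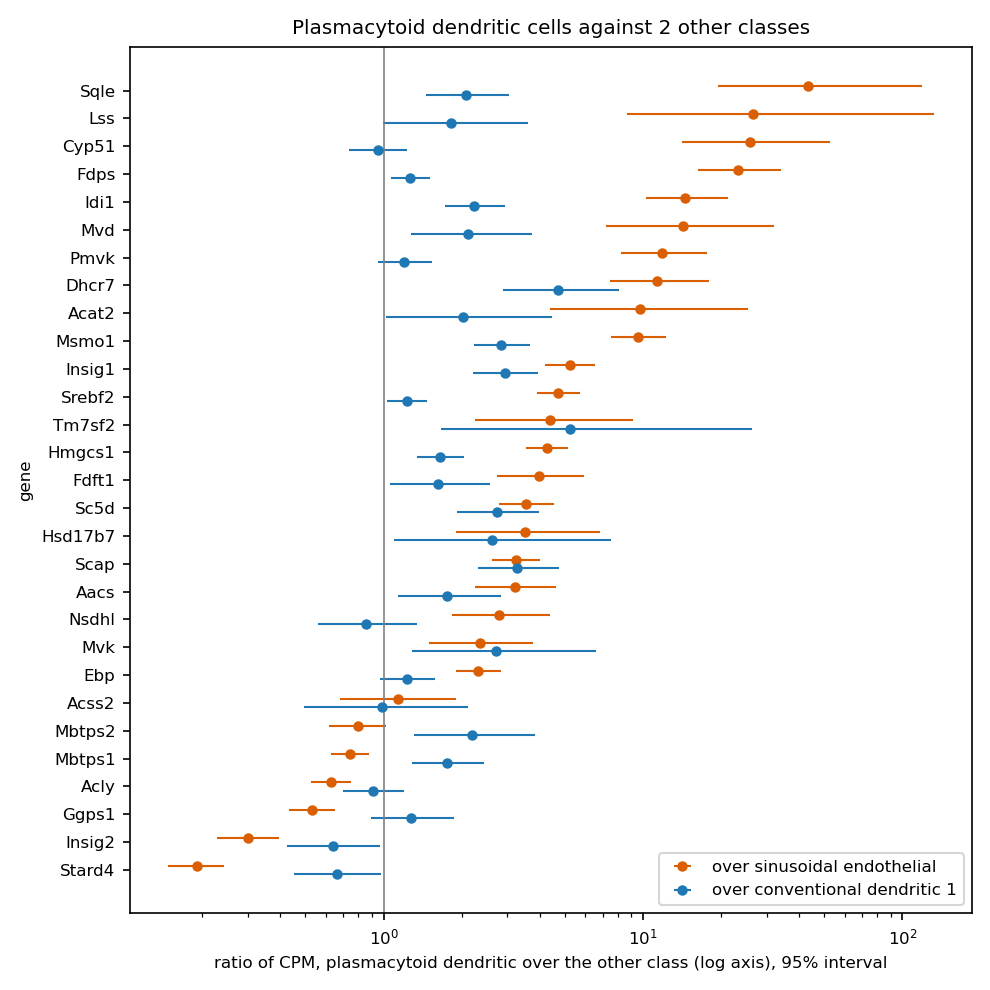
Ratio of CPM in plasmacytoid dendritic cells to sinusoidal endothelial (orange) and to conventional dendritic 1 cells (blue) for each of the 29 genes, on a log axis with 95% intervals. Sqle has the largest ratio over sinusoidal endothelial cells (43.2), and Insig2, Stard4 and Acly lie below 1 in both comparisons. Acly is at 0.908 over conventional dendritic 1 cells.

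SREBP control genes summed to 416 CPM in plasmacytoid dendritic cells (397 to 437), 258 CPM in conventional dendritic 2, 238 CPM in conventional dendritic 1, 237 CPM in sinusoidal endothelial, 159 CPM in NK or ILC1 and 147 CPM in Kupffer cells. Srebf2, the transcription factor, had 144, 127 and 128 CPM in plasmacytoid dendritic cells and 147, 131 and 118 CPM in conventional dendritic 2 cells, so those classes overlapped (ratio 1.01, 0.83 to 1.23). It had 31.0, 28.1 and 26.9 CPM in sinusoidal endothelial cells, the lowest of the 9 classes. In migratory dendritic cells Srebf2 was at 72.2 CPM (46.2 to 107). Scap was at 77.2 CPM in plasmacytoid dendritic cells (75.3, 76.2 and 79.7 by library) and 23.6, 24.2, 23.8 and 23.7 CPM in conventional dendritic 1, conventional dendritic 2, sinusoidal endothelial and NK or ILC1 cells, and at 9.02 CPM in migratory dendritic cells from 3 UMIs. The ratio over conventional dendritic 1 cells was 3.27 (2.31 to 4.75), against 1.23 (1.03 to 1.47) for Srebf2. The Srebf2 interval held 1 without library 1 or without library 3. The proteases were led by sinusoidal endothelial cells, with Mbtps1 at 76.0 CPM (56.4 CPM in plasmacytoid dendritic cells; ratio of the second to the first 0.74, 0.63 to 0.88) and Mbtps2 at 32.4 CPM (25.8 CPM). For Mbtps2 the interval of the ratio held 1 (0.62 to 1.02), and its gene overlaps Yy2 on the same strand.

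Insig1 and Insig2, the paired retention factors whose promoter windows are printed above, had opposite orders. Insig1 had 136, 97.6 and 96.4 CPM in plasmacytoid dendritic cells of libraries 1, 2 and 3, and 24.2, 22.0 and 18.8 CPM in sinusoidal endothelial cells. Insig2 had 17.9, 14.7 and 18.1 CPM in plasmacytoid dendritic cells and 71.8, 48.9 and 50.4 CPM in sinusoidal endothelial cells. Neither gene overlapped between these classes. UMIs of Insig1 to Insig2 were 431 to 67 in plasmacytoid dendritic cells, a ratio of 6.43 (4.96 to 8.45), and 106 to 285 in sinusoidal endothelial cells, a ratio of 0.372 (0.295 to 0.466), each in 3 of 3 libraries. Conventional dendritic 2 cells had 42 to 13 (3.23, 1.70 to 6.56), which became 2.40 with an interval holding 1 without library 2. NK or ILC1 cells had 46 to 78 (0.590, 0.400 to 0.860), which became 0.625 with an interval holding 1 without library 3. In conventional dendritic 1 cells the counts were 56 to 40 (1.40, 0.917 to 2.16), and without library 2 the ratio was 2.07 with an interval above 1. Kupffer cells had 20 to 22, and their ratio could not be told from 1.

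**Figure D5:**
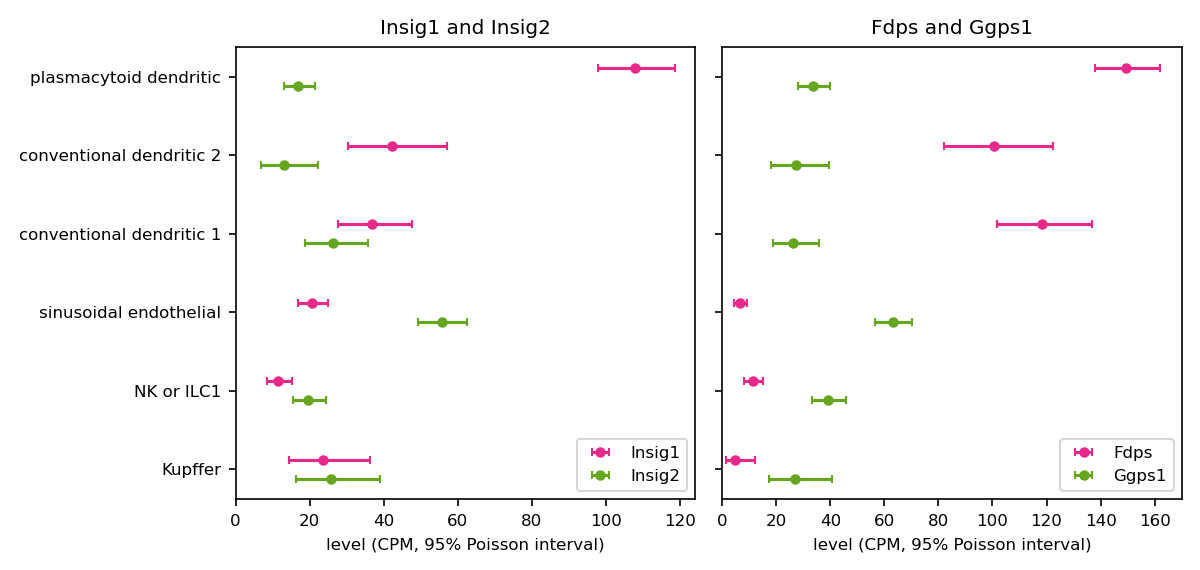
Levels (CPM, x axis, 95% Poisson intervals) of Insig1 and Insig2 at the left and of Fdps and Ggps1 at the right in 6 cell classes (y axis). In both pairs the first gene is higher in plasmacytoid dendritic cells and the second in sinusoidal endothelial cells, with Insig1 at 108 and 20.7 CPM and Ggps1 at 33.6 and 63.1 CPM.

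Stard4, a soluble protein that moves cholesterol between membranes, had the lowest ratio of plasmacytoid dendritic to sinusoidal endothelial cells of the 29 members. It had 106, 109 and 99.5 CPM there in libraries 1, 2 and 3, against 22.4, 13.4 and 23.9 CPM in plasmacytoid dendritic cells and 48.4, 23.1 and 30.6 CPM in NK or ILC1 cells. The sinusoidal endothelial values lay above all of these. The ratio of plasmacytoid dendritic to sinusoidal endothelial cells was 0.19 (0.15 to 0.24), and sinusoidal endothelial cells exceeded NK or ILC1 cells, the next class, 3.29 times (2.70 to 4.03). Neutrophils held no UMI of Stard4, and the interval reaches 13.6 CPM.

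Members that followed the rest of the pathway over the 9 classes can be set beside those that did not. As a description over 9 classes that share libraries, the level of Idi1 had a Pearson r of 0.98 with the sum of the other members, Fdft1 0.97, Sqle and Hmgcs1 0.95 and Insig1 0.95. Stard4 (−0.03), Insig2 (−0.01), Ggps1 (0.01), Acly (−0.21), Acss2 (−0.19) and Sc5d (0.15) had values near 0 or below.

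Per cell, depth differed between classes, so each cell was thinned to 2000 UMIs and shallower cells were left out (5 of 386 plasmacytoid dendritic, 158 of 920 sinusoidal endothelial, 4 of 105 conventional dendritic 1, 1 of 79 conventional dendritic 2 and 2 of 38 migratory dendritic cells). The mean number of member UMIs was then 3.06 in plasmacytoid dendritic cells (3.13, 2.77 and 3.32 by library). It was 2.47 in migratory dendritic, 2.10 in conventional dendritic 2, 1.76 in conventional dendritic 1 and 1.28 in sinusoidal endothelial cells. Before thinning the median was 13 member UMIs in plasmacytoid dendritic and 3 in sinusoidal endothelial cells. In conventional dendritic 1 cells the 10 cells richest in member UMIs of 101 held 43.3% of them, and in plasmacytoid dendritic cells the 38 richest of 381 held 29.6%.

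Other genes of the pathway, in 3 lists chosen beside the members, had summed ratios of plasmacytoid dendritic to sinusoidal endothelial cells below 1, unlike the member sum. The fatty acid arm (10 genes, among them Srebf1, Fasn and Scd2) summed to 241 CPM in plasmacytoid dendritic and 260 CPM in sinusoidal endothelial cells, with a ratio of 0.93 whose interval held 1 (0.85 to 1.01), and to 461 CPM in B cells, of which Scd1 gave 384 CPM. Genes of the turnover of SREBP pathway proteins (8 genes) summed to 472 and 538 CPM in plasmacytoid dendritic and sinusoidal endothelial cells, with a ratio of 0.88 (0.83 to 0.93). Of these, Ubxn4 was at 244 and 133 CPM and Rnf145, a sterol-responsive ubiquitin ligase, at 14.5 and 128 CPM. Isoprenoid branches (10 genes) summed to 181 and 281 CPM, with Nus1, part of the dolichol-making prenyltransferase, at 30.6 and 107 CPM. Against other classes the lists ran the members' way in part. The turnover list was higher in plasmacytoid dendritic cells than in conventional dendritic 1 (1.43, 1.29 to 1.58), conventional dendritic 2 (1.60, 1.42 to 1.82), NK or ILC1 (1.32, 1.23 to 1.42) and T cells (1.35, 1.14 to 1.60). The fatty acid arm was higher than in NK or ILC1 (1.47, 1.33 to 1.63), T (1.34, 1.06 to 1.71) and migratory dendritic cells (3.48, 2.30 to 5.51), and its ratio over conventional dendritic 1 cells was 1.13 with an interval holding 1 (0.993 to 1.28). Soat1, which esterifies cholesterol for storage, was at 14.0 CPM in plasmacytoid dendritic and 59.8 CPM in sinusoidal endothelial cells and reached 241 CPM in Kupffer cells.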

How the data were processed

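Single cells of sorted mouse liver non-parenchymal fractions were profiled with 10x Genomics 3′ v3 chemistry, 1 library for each of 3 treatments. The authors deposited 1 table of raw UMI counts per gene and barcode, not normalized, made with Cell Ranger 3.1.0 per the file headers on mm10. STAR, Seurat and edgeR are also named in the submitters' processing notes, without a role. Whether reads were equalised between libraries is not stated in the labels or headers.

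Libraries held 1211, 1701 and 1726 barcodes with 6144949, 8754827 and 9211407 UMIs (suffixes 1, 2 and 3). Since no source ties a suffix to a treatment, no treatment was compared and no test was run. Barcodes with at least 200 genes and at most 20% mitochondrial UMIs were kept (3230), and 23 doublets (0.712%) called by Scrublet (scanpy 1.11.5) in each library were removed. A cell joined a class with UMIs of at least 3 of its 8 markers and strictly more markers than for any other class; 305 cells met no class and 73 tied. UMIs were summed per class and given per 1000000 (CPM), with exact 95% intervals (scipy 1.17.1, Python 3.11.15). A gene entered a comparison of all genes with at least 20 UMIs in both classes together. TMM scaling used edgeR 4.0.16 (R 4.3.3) on class sums, as an alternative. The intervals' script was checked on simulated counts. Sequences and promoters came from RefSeq on GRCm38.p6.

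A further list of pathway genes is not reported here. Members and lists were chosen with earlier results of these data known. Values by library were given for the leading 2 genes of each stage by level and for members at least 2 times higher in a class other than plasmacytoid dendritic; others named were chosen after their values were seen. Several choices also followed a look at the values. Marker minimums of 2, 3 and 4 were compared for class overlap, and 3 rules for ties were compared with class sizes and member sums in view; the rule closest to the plan was kept, and the others are alternatives. A ratio was counted as reversed only where one of both intervals excludes 1, a limit set after crossings within the intervals had been seen, and the ratios of stages were added to the main results at that point. The cycling split, the 120-base promoter windows (an earlier rule used another flank) and their genes were chosen after seeing the data. There were 11 planned and 3 added alternatives.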

Additional observations from a re-analysis of the deposited data

Results flagged for a closer look

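The 1408 barcodes removed by the filter on genes and mitochondrial UMIs, which enter no comparison, held 1903 UMIs of the 29 genes, or 953 per 1000000 non-mitochondrial UMIs (95% Poisson interval 910 to 996). It is listed because it is a signal in unused data above the 1.50 per 1000000 that a count of 0 would allow, a limit that any expressed gene list in so many barcodes would pass. Srebf2 was the leading member there, with 108 per 1000000. The hepatocyte list summed to 5898 per 1000000 in the same barcodes, and its part in the member sum was not tested.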

How the results depend on the processing

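In all 112 alternatives of the summed ratio of plasmacytoid dendritic cells to each of the other 8 classes of at least 50 cells, the direction held and the interval excluded 1. Levels moved more. Under TMM the member sum was 1507 CPM in plasmacytoid dendritic, 1071 CPM in conventional dendritic 1, 556 CPM in sinusoidal endothelial, 512 CPM in NK or ILC1 and 465 CPM in T cells, the ratio of plasmacytoid to migratory dendritic cells was 1.04, the prenyl ratio over conventional dendritic 1 cells 1.10 (both intervals held 1), and the ratio of conventional dendritic 1 to 2 turned to 1.09, its interval excluding 1. Without mitochondrial, ribosomal protein and hepatocyte genes in the denominator the sums were 2097 (plasmacytoid dendritic), 1361 (conventional dendritic 1), 1356 (conventional dendritic 2), 757 (T), 739 (sinusoidal endothelial), 728 (NK or ILC1), 697 (nonclassical monocyte) and 593 CPM (Kupffer), and the ratio of migratory to conventional dendritic 1 cells was 1.11. With no mitochondrial filter the sums were 1521 CPM (plasmacytoid dendritic) and 617 CPM (sinusoidal endothelial).

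Thinning cells to 1000 UMIs leaves few counts. The sums were then 875 (conventional dendritic 1), 597 (NK or ILC1), 489 (nonclassical monocyte), 444 (neutrophil) and 435 CPM (Kupffer), and migratory dendritic cells had ratios of 1.02 over conventional dendritic 1 and 1.43 over sinusoidal endothelial cells. Stage ratios of plasmacytoid over conventional dendritic 1 cells were 1.08 (acetyl-CoA), 1.45 (prenyl), 1.27 (squalene) and 1.17 (sterol carrier and Stard4, reversed), and over conventional dendritic 2 cells 1.39 (acetyl-CoA), 1.40 (mevalonate), 0.929 (prenyl, reversed) and 3.38 (squalene). Ratios of single genes that reversed were Acat2 (0.808), Sqle (0.970) and Insig2 (1.89) over conventional dendritic 1 and Mbtps1 (1.15) over sinusoidal endothelial cells. The ratio of Insig1 to Insig2 was 1.33 in conventional dendritic 2 and 0.923 in NK or ILC1 cells, 3 members were highest in sinusoidal endothelial cells, and 4 were at least 2 times higher there than in plasmacytoid dendritic cells. The ratios listed in this paragraph all had intervals that held 1. The summed ratios of plasmacytoid dendritic cells over the other classes of at least 50 cells still excluded 1 after this thinning.

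The remaining alternatives moved sums, stage ratios and ratios of single members. With the stricter gate, 8 intervals of member ratios over sinusoidal endothelial or conventional dendritic 1 cells came to hold 1. Without cells holding a Mki67 or Top2a UMI, 7 came to hold 1 and 1 came to exclude it. Among all alternatives of these member ratios, 61 intervals came to hold 1, 6 came to exclude it, 5 ratios reversed and 733 kept their call. A lead of 2 markers gave a sum of 1092 CPM in conventional dendritic 2 cells, a ratio of conventional dendritic 1 to 2 of 0.883 (interval excluding 1), and ratios of plasmacytoid over conventional dendritic 2 cells of 1.14 (acetyl-CoA) and 1.13 (prenyl), whose intervals held 1; a gate also by marker UMI sum gave 918 CPM in conventional dendritic 2 cells. Both gates and the cycling split were added after seeing the data. Without cells holding a Mki67 or Top2a UMI the sums were 1024 CPM (conventional dendritic 1) and 1099 CPM (conventional dendritic 2), the prenyl ratio over conventional dendritic 1 cells 1.08 (interval holding 1), and the sterol carrier ratios 0.731 (holding 1) and 0.513 (excluding 1) over conventional dendritic 1 and 2. The sterol carrier ratio was 0.735 (holding 1) over conventional dendritic 1 cells with the stricter gate and 0.580 (excluding 1) over conventional dendritic 2 cells with at most 10% mitochondrial UMIs and at least 500 genes. The unweighted mean of libraries gave an Insig1 to Insig2 ratio of 1.59 in conventional dendritic 1 cells.

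Leaving out each library in turn gave sums of 1529 to 1668 CPM (plasmacytoid dendritic), 914 to 1025 CPM (conventional dendritic 1) and 917 to 1096 CPM (conventional dendritic 2). Ratios of plasmacytoid over conventional dendritic 1 cells ran from 1.17 to 1.43 (prenyl; 1.27, 1.09 to 1.48, with all libraries) and 0.543 to 0.752 (sterol carrier; 0.662, 0.453 to 0.977), and over conventional dendritic 2 cells from 1.16 to 2.16 (acetyl-CoA) and 0.434 (without library 3) to 1.09 (sterol carrier; 0.669, 0.432 to 1.06). The intervals came to hold 1 for prenyl and acetyl-CoA without library 3 (1.17 and 1.16) and for the sterol carrier over conventional dendritic 1 cells without library 1 (0.688) or 2 (0.752), and came to exclude 1 for the value of 0.434. Insig1 to Insig2 ran from 2.40 to 3.50 in conventional dendritic 2, 1.23 to 2.07 in conventional dendritic 1 and 0.553 to 0.625 in NK or ILC1 cells. Ratios of plasmacytoid dendritic over sinusoidal endothelial cells that moved by over 1.5 times without library 3 were those of Idi1 (8.44), Cyp51 (16.2), Lss (16.8), Mvd (28.7), Sc5d (5.58), Sqle (24.6), Acss2 (0.697, against 1.14 with all libraries, both intervals holding 1) and Hsd17b7 (2.30), the last also without library 1 (6.38). Over conventional dendritic 1 cells, Tm7sf2 was at 3.45 without library 3 and Mvk at 4.15 without library 2 and 2.05 without library 3, where its interval held 1. In the same comparison the intervals of Fdps, Fdft1, Hsd17b7 and Srebf2 came to hold 1 without library 3. Those of Hsd17b7 and Insig2 (0.933) did so without library 2, and those of Srebf2 and Aacs without library 1. A further 22 ratios crossed 1 with both intervals holding 1, and 7 had no value because a count was 0. No paired test was run, because the results come from intervals and the 3 libraries are 3 treatments and not replicates. Pooled ratios took no account of library, and the classes were spread unevenly over libraries 1, 2 and 3. Sinusoidal endothelial cells numbered 231, 147 and 542 there, and plasmacytoid dendritic cells 102, 154 and 130. The classes are paired within each library, and the ratios within libraries stand beside several of the pooled ones.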

Other observations

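Cells with a UMI of Mki67 or Top2a, genes of dividing cells, differed from the others in some classes. The member sum was 820 CPM in 20 such conventional dendritic 1 cells (732 to 916) and 1024 CPM in the 85 others (966 to 1085). It was 783 CPM in 23 such conventional dendritic 2 cells (694 to 881) and 1099 CPM in the 56 others (1019 to 1183). In library 1 the order was opposite for conventional dendritic 2 cells (1495 CPM in 5 cells and 1120 CPM in 10), and in library 3 for conventional dendritic 1 cells (957 CPM in 9 cells and 811 CPM in 23). In plasmacytoid dendritic cells the values were 1535 CPM (24 cells, 1393 to 1688) and 1579 CPM (362 cells, 1538 to 1620). Median depth was 19900 UMIs in conventional dendritic 1 cells with a Mki67 or Top2a UMI and 14520 UMIs in the others. It was 14889 and 12593.5 UMIs in conventional dendritic 2 cells, and 12146.5 and 11432.5 UMIs in plasmacytoid dendritic cells. The part of depth in these differences was not tested.

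Within classes, UMIs of Srebf2 to Scap were 528 to 308 in plasmacytoid dendritic cells, a ratio of 1.71 (1.49 to 1.98). The ratio was 4.56 (3.16 to 6.73) in conventional dendritic 1, 5.42 (3.49 to 8.76) in conventional dendritic 2 and 7.40 (3.81 to 16.1) in nonclassical monocytes, and 1.18 in sinusoidal endothelial cells, where the interval held 1 (0.92 to 1.51). Cells that tied between classes (73) held 1080 member UMIs per 1000000 non-mitochondrial UMIs, and cells with no class (305) held 707.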
